A study of Drosophila melanogaster with 15 samples.

Results

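A set of 10 genes that mark the blood cells of the Drosophila larva was followed in wing imaginal discs with and without knockdown of the tumour suppressor avl. The 10 genes are Hml, He, NimC1, eater, Pxn, Sr-CI and crq, used as markers of plasmatocytes, and PPO1, PPO2 and lz, used as markers of crystal cells. They were chosen by name, and all 10 had a probe set of their own among the 11982 genes measured. The main result concerned the oldest knockdown discs, those of 168 h against those of 116 h. The crystal cell transcripts PPO1 and PPO2 were lower at 168 h, while the plasmatocyte receptors eater and NimC1 were higher. These 2 falls and 2 rises among 10 markers stood beside 27.0% of all genes passing the test, so their number alone does not set the markers apart. The other plasmatocyte markers did not pass it with all arrays. Against control at 116 h, NimC1 at 168 h did not pass either. Between knockdown and control discs of the same age 0 of the 10 markers passed the test at 92 h, beside 4.48% of all genes, and 1 of 10 at 116 h, beside 31.7% of all genes. That marker was NimC1, whose call held in 5 of 8 other settings and without 11 of the 15 arrays in turn. Among the arrays compared, leaving out replicate 1 or 2 of either genotype at 116 h lost the call.

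Drosophila blood cells are called haemocytes. Plasmatocytes are macrophage-like, circulate or sit in clusters under the larval cuticle, and take up bacteria and dying cells. Crystal cells store prophenoloxidases, the enzymes that are activated to make melanin at wounds, and they depend on the transcription factor Lozenge. Haemocytes are known to attach to the basement membrane of imaginal discs whose epithelium is damaged or overgrown, so that a dissected disc can bring haemocyte RNA with it.

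The discs are the epithelial sacs that form the wing and notum. In avl-RNAi larvae (w-; elav-GAL80/+ with Rn-GAL4 and UAS Avl RNAi on a single recombined chromosome, heterozygous) the GAL4 of rotund drove an RNAi construct against avl, the early endosomal syntaxin gene now named Syx7. In control larvae Rn-GAL4/+ and elav-GAL80/+ were present without it. Both genotypes were in the w1118 background. Rn-GAL4 is active in the distal wing region and not in the whole disc, and elav-GAL80 holds GAL4 off in neurons. The groups were avl-RNAi at 92, 116 and 168 h after egg deposition, described as neoplastic, and control at 92 and 116 h, described as wild type, with 3 arrays each. No control of 168 h was analysed here, so age and knockdown cannot be told apart in the oldest group. The labels call the arrays of a group replicates without saying whether separate larvae were used, so p-values measure the spread between these arrays, which may be technical. Syx7 had no probe set of its own, and the knockdown itself was not analysed here.

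Levels are log2 values normalized between arrays by the authors, and a level may be compared between groups but not between genes, since probe sets differ in brightness. The medians of the arrays lay between 4.74 and 4.79. The wing disc genes nub, vg, ap and rn were above the array median in 15 of 15 arrays, nub at 10.31 to 11.24. Of the haemocyte genes Hml, Pxn, crq, PPO1 and PPO2 were above the array median in all 15 arrays, He in 14, Sr-CI in 12, eater in 11 and NimC1 in 9. That median covers all probe sets and is no threshold of presence. At their lowest, eater stood at 4.12 (percentile 24.8 of its array) and NimC1 at 4.22 (percentile 30.4). The gene lz was above the median in 0 of 15 arrays and lay in the lowest 0.1% to 2.5% of its array. In bulk RNA of whole discs, fewer haemocytes and less RNA per haemocyte cannot be told apart.

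A single array stood furthest apart in these genes. In avl-RNAi at 116 h replicate 3 was the highest of its group for 9 of the 10 genes, crq being the exception, and the highest of all 15 arrays for 7 of them. Its level exceeded the mean of replicates 1 and 2 by 2.86 for He, by 2.14 for Sr-CI and by 1.86 for Hml on the log2 scale. It did so by 1.86 for PPO1 and by 1.89 for PPO2, so that the plasmatocyte and the crystal cell transcripts were high together. Of the 10 genes, 7 were at least 1 log2 unit above the other replicates there, against 46 of all 11982 genes (0.384%). The wing genes nub (10.31, 10.37 and 10.39) and vg (9.49, 9.73 and 9.62) differed little between the same 3 replicates. Some genes outside the haemocyte markers were highest in replicate 3: disco had 6.94, 7.14 and 7.74, disco-r 7.58, 7.67 and 8.52, and btd 6.82, 6.84 and 7.29, transcription factor genes known from leg or head tissue that were picked after their values were seen. Results that use this group are given with and without the array. It was singled out for its levels of these same genes, so p-values without it are a description and no separate evidence. At 92 h replicate 3 was also the highest of its group for most markers, by less. Hml had 7.98, 8.02 and 8.35 there in avl-RNAi and 6.94, 7.28 and 7.72 in control discs. In control at 116 h replicate 3 was not the highest, with 7.41, 6.77 and 6.80 for Hml. The part of the replicate number in these levels was not tested.

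**Figure D1:**
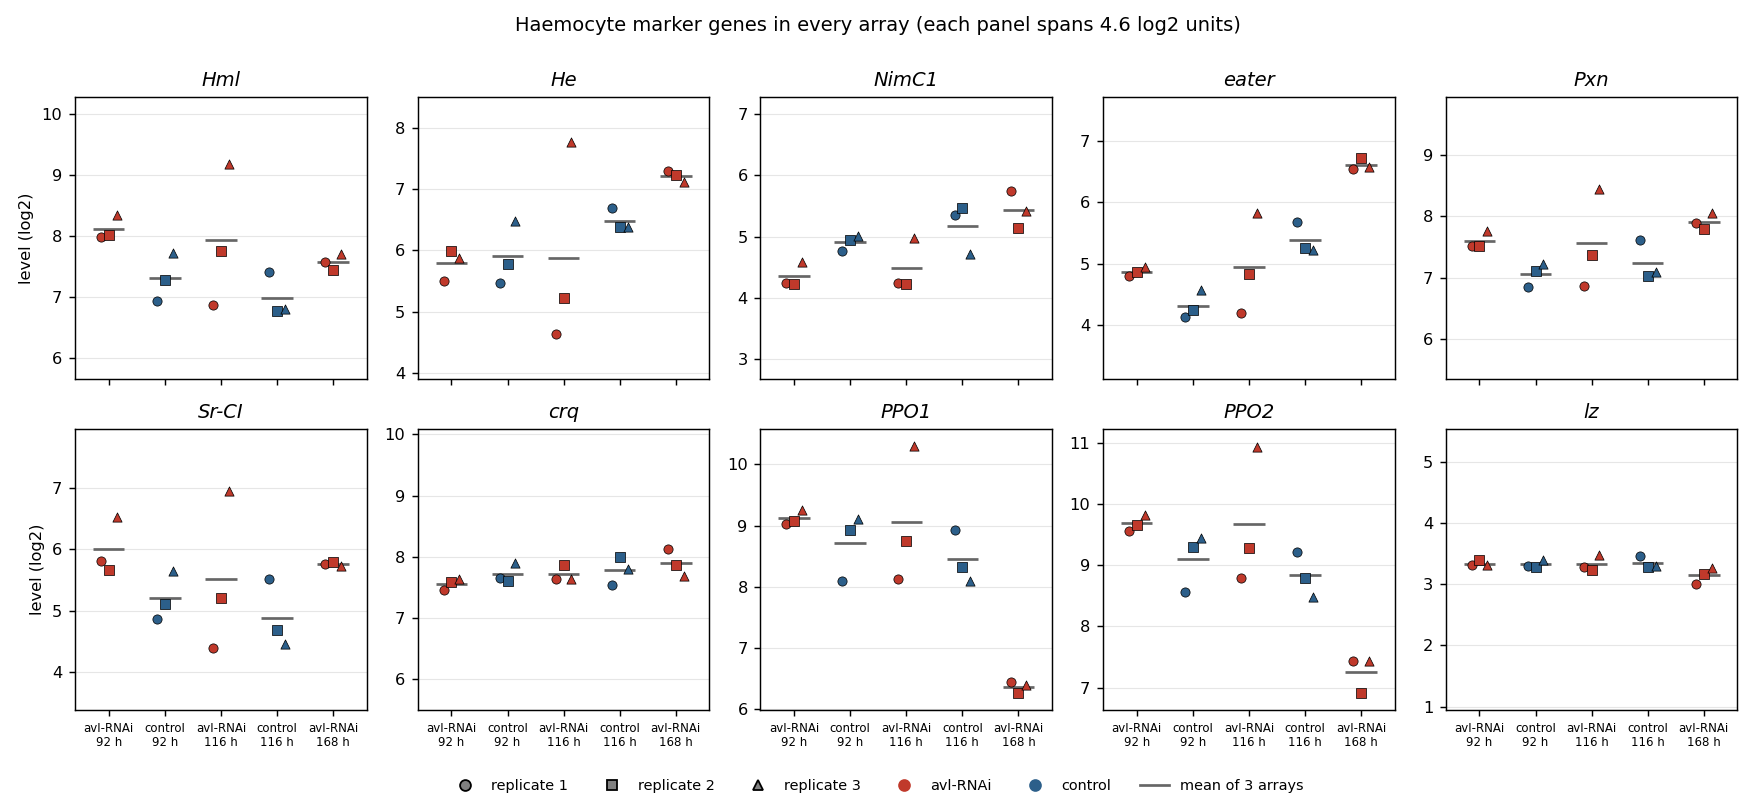
Level (log2) of the 10 haemocyte marker genes in each of the 15 arrays, with a point for each array, its shape giving the replicate and its colour the genotype, and a bar for the mean of 3 arrays. PPO1 and PPO2 lie lowest in avl-RNAi at 168 h and eater lies highest there, and replicate 3 of avl-RNAi at 116 h lies above the other replicates of its group for 9 genes.

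RNA of other larval tissues also varied, and it did not follow the haemocyte genes in that array. The mean of 5 measured fat body genes of 8 listed was 8.76, 10.15 and 8.44 in replicates 1, 2 and 3 of avl-RNAi at 116 h, so that replicate 3 was the lowest. The mean of 14 gut genes of 17 listed was 5.51, 5.33 and 5.39, and the mean of 6 muscle genes of 10 listed was 7.63, 7.07 and 7.38. None of these means was highest in replicate 3, where the haemocyte genes were. The low fat body mean was not particular to that array. Replicate 3 was also the lowest in fat body genes in avl-RNAi at 92 h (7.85) and 168 h (7.47). The same held in control at 92 h (8.36) and 116 h (7.63).

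**Figure D2:**
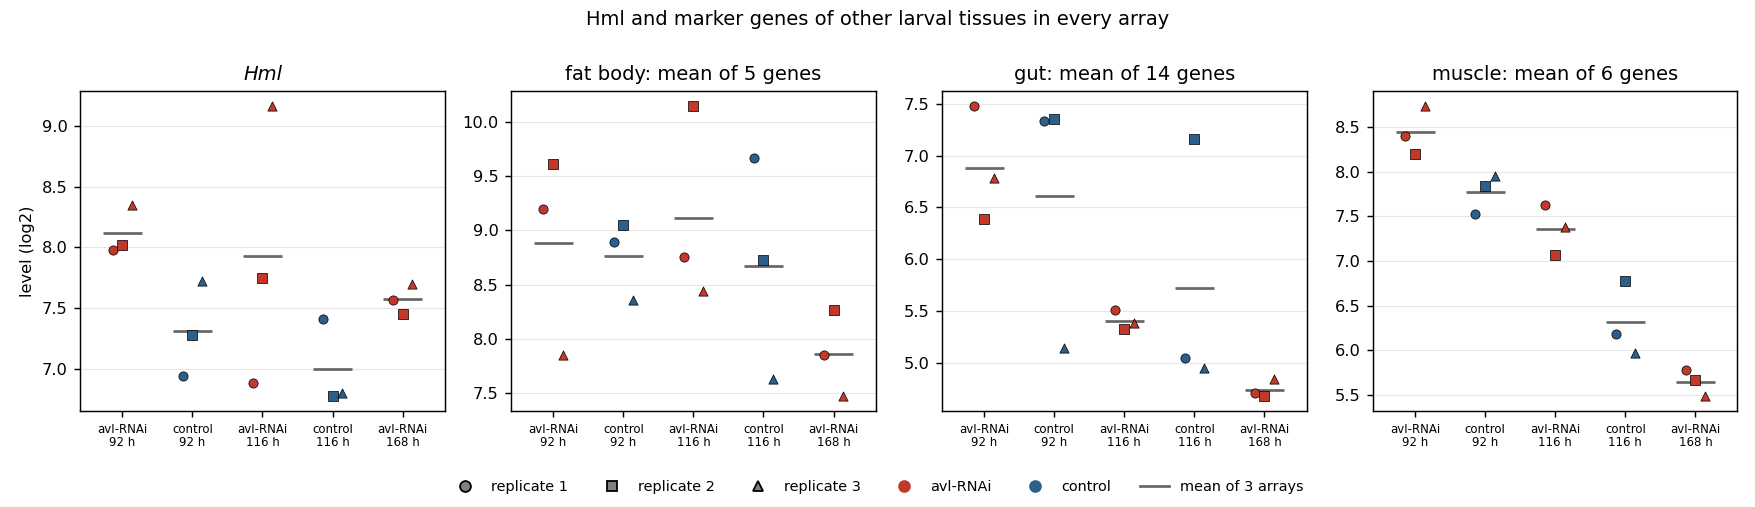
Level (log2) of Hml beside the mean level of fat body, gut and muscle genes in each array, with a point for each array and a bar for the group mean. Replicate 3 of avl-RNAi at 116 h is highest in Hml (9.17) and lowest of its group in fat body genes (8.44), and muscle genes are lowest in avl-RNAi at 168 h (5.48 to 5.78). Replicate 3 is the lowest in fat body genes in every group.

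PPO1 and PPO2 encode the prophenoloxidases that crystal cells make and release. PPO1 had levels of 9.02, 9.07 and 9.26 (92 h), 8.13, 8.75 and 10.30 (116 h) and 6.44, 6.26 and 6.40 (168 h) in avl-RNAi discs, against 8.10, 8.92 and 9.11 (92 h) and 8.93, 8.33 and 8.10 (116 h) in control discs. The 3 arrays of 168 h lay below the other 12, which overlapped one another. PPO1 fell 6.47-fold in avl-RNAi discs of 168 h against those of 116 h (log2 difference -2.69 ± 0.42, standard error, n = 3 arrays a group, limma, adjusted p = 0.000348). PPO2 had levels of 9.56, 9.66 and 9.83 (92 h), 8.80, 9.29 and 10.94 (116 h) and 7.43, 6.92 and 7.43 (168 h) in avl-RNAi discs, against 8.57, 9.30 and 9.44 (92 h) and 9.22, 8.80 and 8.49 (116 h) in control discs. Its arrays showed the same order, with 168 h below all others, and at 168 h PPO2 was 5.34-fold lower than at 116 h (difference -2.42 ± 0.42, limma, adjusted p = 0.00075).

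The fall did not rest on the high array at 116 h. Without replicate 3 of avl-RNAi at 116 h the difference was -2.07 for PPO1 (limma, adjusted p = 0.000217) and -1.78 for PPO2 (adjusted p = 0.000401). Set against the oldest controls, of 116 h, PPO1 in avl-RNAi at 168 h was 4.25-fold lower (-2.09 ± 0.42, limma, adjusted p = 0.00222) and PPO2 2.98-fold lower (-1.57 ± 0.42, adjusted p = 0.0129). The PPO2 call against controls was lost without avl-RNAi 168 h replicate 2 (adjusted p = 0.0542) or control 116 h replicate 1 (adjusted p = 0.0562). Ordered by mean level, PPO1 stood at 9.12 in avl-RNAi at 92 h, 9.06 in avl-RNAi at 116 h, 8.71 in control at 92 h, 8.45 in control at 116 h and 6.37 in avl-RNAi at 168 h. Of the neighbouring pairs in this order the last passed the test, the pair of avl-RNAi groups and the pair of control groups did not, and the pair between them was not tested.

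The transcription factor gene lz specifies crystal cells, and its probe set varied little. Its levels ran from 3.0 to 3.48 over all arrays, and no comparison was called with all 15 arrays. At 168 h its mean was 3.15 in avl-RNAi discs, against 3.34 in avl-RNAi discs at 116 h (difference -0.19, limma, adjusted p = 0.0962). So near the bottom of every array, its values do not show whether lz RNA was present.

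Eater is a phagocytosis receptor of the Nimrod family that binds bacteria, and it is a plasmatocyte marker. Its levels were 4.79, 4.87 and 4.95 (92 h), 4.19, 4.83 and 5.82 (116 h) and 6.54, 6.72 and 6.58 (168 h) in avl-RNAi discs, against 4.12, 4.24 and 4.57 (92 h) and 5.68, 5.26 and 5.22 (116 h) in control discs. The 168 h arrays lay above the other 12. Eater was 3.17-fold higher in avl-RNAi at 168 h than at 116 h (1.67 ± 0.29, limma, adjusted p = 0.000754), and 2.10 higher on the log2 scale without replicate 3 (adjusted p = 5.42e-06). Against control at 116 h it was 2.34-fold higher in avl-RNAi at 168 h (1.23 ± 0.29, adjusted p = 0.00619). By mean level the order was 6.61 in avl-RNAi at 168 h, 5.39 in control at 116 h, 4.95 in avl-RNAi at 116 h, 4.87 in avl-RNAi at 92 h and 4.31 in control at 92 h, and of the neighbouring pairs the first passed the test.

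NimC1, another Nimrod receptor of plasmatocytes and the antigen by which they are often stained, was the other receptor to rise late. It had levels of 4.24, 4.23 and 4.59 (92 h), 4.25, 4.22 and 4.98 (116 h) and 5.74, 5.14 and 5.42 (168 h) in avl-RNAi discs, against 4.77, 4.94 and 5.01 (92 h) and 5.36, 5.47 and 4.71 (116 h) in control discs. All avl-RNAi arrays of 168 h lay above those of 116 h, and the difference was 0.95 ± 0.23, or 1.93-fold (limma, adjusted p = 0.00727). Against control at 116 h the 168 h arrays overlapped and the difference of 0.26 was not called (adjusted p = 0.49).

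He, the gene of the Hemese glycoprotein on the haemocyte surface, lies between NimB4 and NimC1 on chromosome arm 2L. Its levels were 5.50, 5.99 and 5.88 (92 h), 4.63, 5.22 and 7.78 (116 h) and 7.30, 7.23 and 7.12 (168 h) in avl-RNAi discs, against 5.47, 5.78 and 6.48 (92 h) and 6.69, 6.38 and 6.38 (116 h) in control discs. The spread of 3.16 log2 units in avl-RNAi at 116 h, with replicate 3 above and replicates 1 and 2 below every control array, was the widest of any marker in any group. With all arrays, avl-RNAi at 168 h minus 116 h was 1.34 ± 0.57 (limma, adjusted p = 0.104). Without replicate 3 it was 2.29 ± 0.25 (adjusted p = 3.79e-05), so the call depended on that array.

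In avl-RNAi discs of 168 h against 116 h, 4 of the 10 markers were called, 2 in each direction, beside 27.0% of all genes. For the same 4 markers, PPO1, PPO2, eater and NimC1, the arrays of the groups did not overlap, beside 39.3% of all genes. The 4 of 10 without overlap are a share near that of all genes. The median difference was 0.35 over the 7 plasmatocyte markers and -2.42 over the 3 crystal cell markers, beside -0.0073 over all genes. Without avl-RNAi 116 h replicate 3, 6 markers were called, with a background of 25.5%: He, NimC1, Pxn and eater rose and PPO1 and PPO2 fell. Genes of some other tissues fell in the same comparison. Of muscle genes 4 of 6 fell and 0 rose (median -2.03), with means of 5.64 in avl-RNAi at 168 h and 7.36 at 116 h. Of fat body genes 3 of 5 fell and 0 rose (median -2.16; means 7.86 and 9.12), although Fbp1 had means of 8.96 at 168 h and 7.07 at 116 h. Of tracheal genes 3 of 4 fell (means 9.43 and 9.70) and of salivary gland genes 2 of 5 (means 5.39 and 6.11). None of 14 gut genes was called, although all were lower at 168 h (differences -2.73 to -0.032, means 4.75 and 5.41). Of 3 neuronal genes 1 rose and 0 fell (means 5.85 and 5.86). The part of these tissues in the fall of PPO1 and PPO2 was not tested.

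Against the oldest controls, 3 markers were called in avl-RNAi discs of 168 h (PPO1, PPO2 and eater), at a background of 25.6%. The arrays did not overlap for 8 markers, beside 41.2% of all genes: Hml, He, eater, Pxn and Sr-CI lay above and PPO1, PPO2 and lz below the controls of 116 h. Without avl-RNAi 116 h replicate 3, which enters here through the shared estimate of spread alone, He (difference 0.73, limma, adjusted p = 0.0302) and Pxn (0.67, adjusted p = 0.00877) were called as well, at a background of 26.2%. Fitted on the arrays of these groups alone, 7 of the 10 markers were called, beside 24.9% of all genes, with Hml, He, Pxn and Sr-CI higher in addition to the 3 above.

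**Figure D3:**
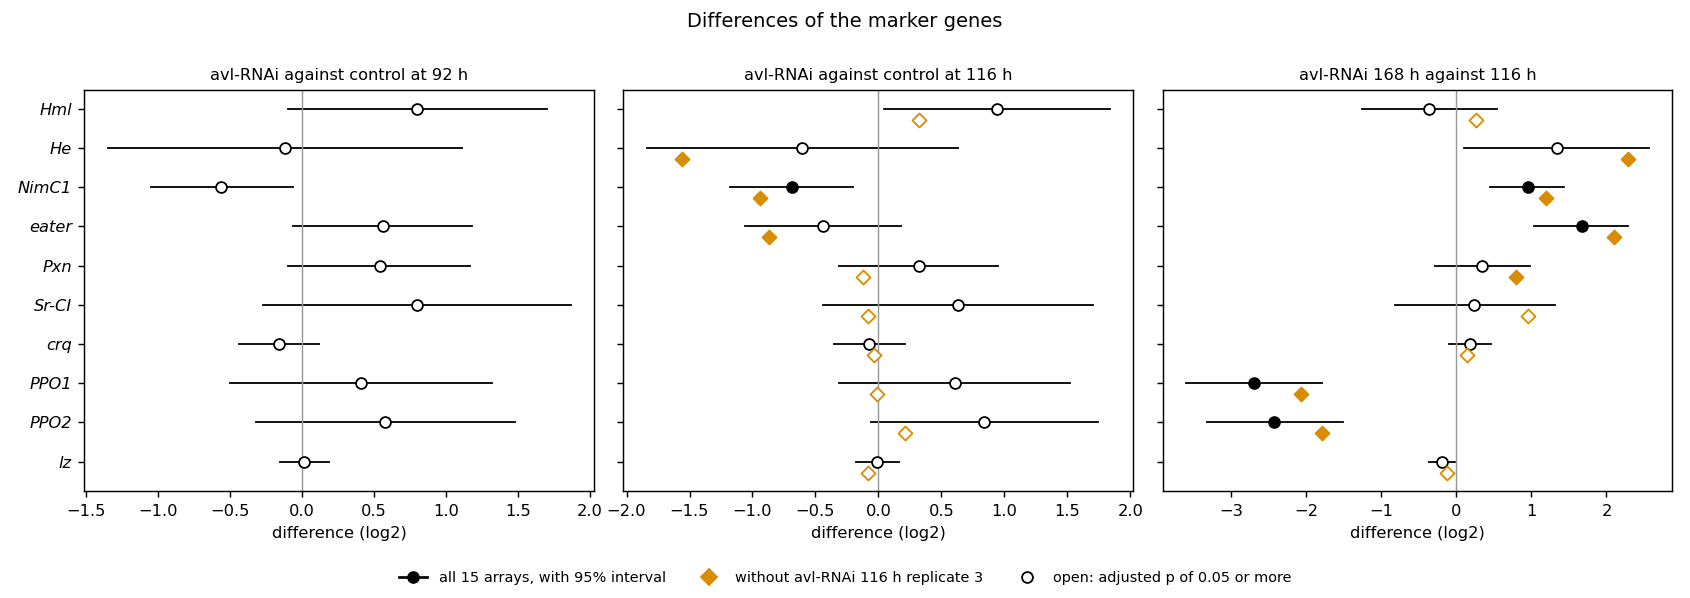
Difference (log2) of each marker for 3 comparisons, avl-RNAi minus control at 92 h, avl-RNAi minus control at 116 h, and avl-RNAi at 168 h minus 116 h, with 95% intervals from all 15 arrays as circles and the difference without avl-RNAi 116 h replicate 3 as diamonds. Filled symbols passed adjusted p under 0.05: none at 92 h, NimC1 at 116 h, and eater, NimC1, PPO1 and PPO2 at 168 h with all arrays.

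Hml, Pxn and Sr-CI are the remaining plasmatocyte genes that varied. Hml encodes hemolectin, a large clotting protein, and had levels of 7.98, 8.02 and 8.35 (92 h), 6.88, 7.75 and 9.17 (116 h) and 7.57, 7.45 and 7.70 (168 h) in avl-RNAi discs, against 6.94, 7.28 and 7.72 (92 h) and 7.41, 6.77 and 6.80 (116 h) in control discs. No comparison of Hml was called with all 15 arrays. Its difference between avl-RNAi and control at 116 h was 0.94 (limma, 95% interval 0.044 to 1.84, adjusted p = 0.109), and 0.32 without replicate 3 (adjusted p = 0.441).

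Pxn encodes peroxidasin, an enzyme of the basement membrane that plasmatocytes secrete. It had levels of 7.52, 7.51 and 7.77 (92 h), 6.87, 7.37 and 8.45 (116 h) and 7.89, 7.80 and 8.05 (168 h) in avl-RNAi discs, against 6.85, 7.11 and 7.23 (92 h) and 7.61, 7.03 and 7.09 (116 h) in control discs. The avl-RNAi arrays of 168 h lay above all control arrays, but the difference from control at 116 h, 0.67 ± 0.29, was not called with all arrays (limma, adjusted p = 0.117). It was called without avl-RNAi 116 h replicate 3 (adjusted p = 0.00877). A second Pxn probe set stayed between 3.68 and 3.98, below the array median in all arrays, and showed no call.

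Sr-CI encodes a class C scavenger receptor that takes up bacteria and lies beside Sr-CIII. Its levels were 5.81, 5.66 and 6.53 (92 h), 4.39, 5.21 and 6.95 (116 h) and 5.76, 5.79 and 5.73 (168 h) in avl-RNAi discs, against 4.86, 5.10 and 5.65 (92 h) and 5.52, 4.69 and 4.45 (116 h) in control discs. No comparison of Sr-CI was called with all arrays. Crq, a CD36-like receptor for dying cells, varied least of the plasmatocyte genes. Its levels lay between 7.45 and 8.13 over all 15 arrays, and its largest difference among the 7 comparisons was 0.19, between avl-RNAi at 168 h and 116 h (limma, 95% interval -0.092 to 0.46, adjusted p = 0.33). It was also the marker that was not raised in the array that stood apart, which was 0.12 below the mean of the other replicates.

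The comparison of avl-RNAi with control at 92 h asks whether the young knockdown disc already differs in haemocyte transcripts. At 92 h no marker was called (0 of 10, background 4.48%). NimC1 alone had an unadjusted limma p under 0.05, at 0.0305. The arrays of the genotypes did not overlap for 6 markers, beside 24.0% of all genes. Hml, eater, Pxn, Sr-CI and PPO2 were higher and NimC1 was lower in all avl-RNAi arrays. The differences that came nearest to a call were -0.56 for NimC1 (limma, 95% interval -1.05 to -0.061, adjusted p = 0.227), 0.56 for eater (-0.065 to 1.18, adjusted p = 0.358) and 0.80 for Hml (-0.095 to 1.70, adjusted p = 0.359). The intervals reached up to 1.87, for Sr-CI, so the lack of a call does not show that levels were equal. The median over the 7 plasmatocyte markers was 0.54, beside -0.0088 over all genes. Muscle genes were high in the same arrays: the mean of 6 was 8.40, 8.20 and 8.74 in avl-RNAi at 92 h, against 7.53, 7.84 and 7.95 in control, with a median difference of 0.75 and 0 of 6 called. Their part in the shift of the markers was not tested.

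At 116 h, 1 of 10 markers was called in avl-RNAi against control, beside 31.7% of all genes. NimC1 fell by 0.69 ± 0.23, or 1.61-fold (limma, adjusted p = 0.0337). The call was lost without avl-RNAi 116 h replicate 1 (adjusted p = 0.129) or 2 (0.121), and without control 116 h replicate 1 (0.112) or 2 (0.136). The arrays of the genotypes overlapped for all 10 markers, while they did not overlap for 40.5% of all genes. Without replicate 3, He fell by 1.56 (adjusted p = 0.000465), NimC1 by 0.94 (adjusted p = 0.00463) and eater by 0.87 (adjusted p = 0.00299), while PPO1, PPO2, Hml, Pxn, Sr-CI, crq and lz were not called, at a background of 29.8%. Hml (difference 1.47, adjusted p = 0.0069) and PPO2 (1.28, adjusted p = 0.0312) were called higher instead when replicate 1 was left out. Replicate 3 was left out for its high values of the markers, so the falls without it are a description.

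The knockdown effect at 116 h was compared with that at 92 h as an interaction. It was called for none of the 10 markers by limma, at a background of 18.2%, and eater alone had an unadjusted p under 0.05, at 0.0295. For eater the difference of differences was -1.0 ± 0.41 (adjusted p = 0.118): avl-RNAi minus control was -0.44 at 116 h and 0.56 at 92 h. Without avl-RNAi 116 h replicate 3 it was -1.43 (adjusted p = 0.00155), and He was also called, at -1.44 (adjusted p = 0.0109), with a background of 17.8%.

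Ageing between 92 and 116 h was read in each genotype. In control discs eater rose by 1.08 ± 0.29, or 2.11-fold (limma, adjusted p = 0.0127), the sole call among the 10 markers at a background of 27.0%. The call was lost without control 92 h replicate 1 (adjusted p = 0.0521) or control 116 h replicate 1 (adjusted p = 0.0554). In avl-RNAi discs no marker was called (background 35.4%, no unadjusted limma p under 0.05), and eater differed by 0.08 ± 0.29 (adjusted p = 0.875). Without replicate 3 of 116 h, Sr-CI fell by 1.20 (adjusted p = 0.0169), He by 0.87 (adjusted p = 0.0181) and Hml by 0.80 (adjusted p = 0.0389), at a background of 33.1%.

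Since the haemocyte genes moved together in that array, each marker was also set against Hml in the same array. These differences were chosen after the values had been seen. Their size depends on the probe sets, so the change between groups is what can be read. PPO1 minus Hml was 1.05, 1.05 and 0.91 (92 h), 1.25, 1.0 and 1.13 (116 h) and -1.13, -1.19 and -1.31 (168 h) in avl-RNAi discs, against 1.16, 1.64 and 1.39 (92 h) and 1.51, 1.56 and 1.30 (116 h) in control discs. Replicate 3 of avl-RNAi at 116 h lay between the other replicates here, and the group SD was 0.13, against 1.12 for PPO1 itself. The mean difference was -2.33 between avl-RNAi at 168 h and 116 h (exact permutation test over arrays, 2-sided, p = 0.1, the smallest that 3 against 3 can give). PPO2 minus Hml was also lower, at -0.32 ± 0.20 in avl-RNAi at 168 h and 1.74 ± 0.19 at 116 h (SD, n = 3, exact permutation p = 0.1). In all, 10 such pairs of genes were compared in 60 tests. The smallest possible p was reached in 31 of the 60, and the lowest adjusted p was 0.194.

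The plasmatocyte markers eater, He and NimC1 went the other way against Hml. Eater minus Hml was -0.96 ± 0.20 in avl-RNAi at 168 h, against -2.98 ± 0.34 in avl-RNAi at 116 h (SD, n = 3). In avl-RNAi at 116 h it was lower than in controls of that age, where it was -1.61 ± 0.12, and the arrays did not overlap (exact permutation p = 0.1, the smallest possible). He minus Hml was -2.06 ± 0.60 in avl-RNAi at 116 h and -0.51 ± 0.19 in control at 116 h, and at 92 h it was -2.32 ± 0.26 in avl-RNAi and -1.40 ± 0.14 in control discs (exact permutation p = 0.1 at each age). NimC1 minus Hml was -3.45 ± 0.78 in avl-RNAi and -1.82 ± 0.45 in control at 116 h, and -3.76 ± 0.022 in avl-RNAi and -2.41 ± 0.28 in control at 92 h. For He, NimC1 and eater relative to Hml, avl-RNAi arrays thus lay below control arrays at both ages, with replicate 3 included. For eater at 92 h the nearest arrays of the genotypes were both at -3.15 to 2 decimals, and the mean difference was -0.24. PPO1 minus Hml also lay below control arrays at both ages, with differences of -0.39 at 92 h and -0.33 at 116 h. Pxn minus Hml lay below control without overlap at 116 h (-0.62) and crq minus Hml at 92 h (-0.96). All these differences share the level of Hml, which was itself higher in every avl-RNAi array than in control at 92 h. The pattern is thus not particular to He, NimC1 and eater. Groups without overlap, at the smallest possible p, were seen in 31 of the 60 tests. Sr-CI minus Hml was -2.11 ± 0.27 in avl-RNAi and -2.11 ± 0.056 in control discs at 92 h, the same to 2 decimals.

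**Figure D4:**
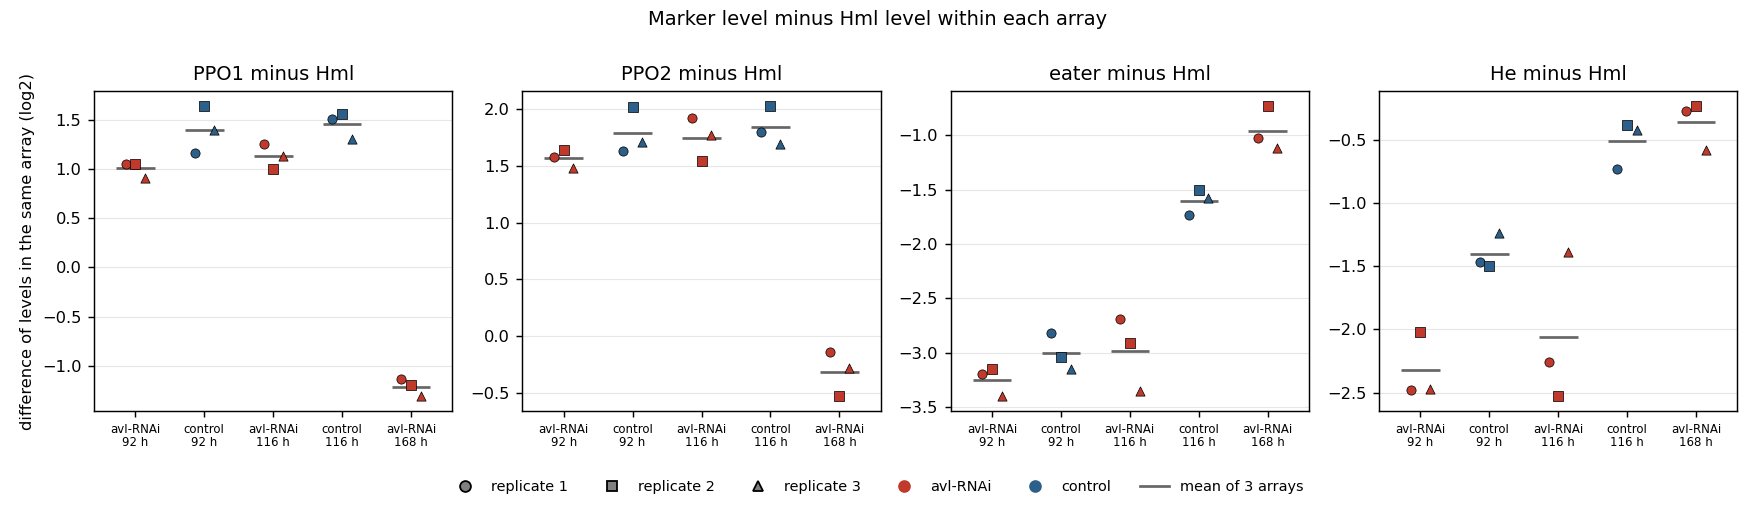
Level of PPO1, PPO2, eater and He minus the level of Hml in the same array (log2), with a point for each array and a bar for the mean of 3 arrays. PPO1 and PPO2 relative to Hml lie lowest in avl-RNAi at 168 h (means -1.21 and -0.32), and eater and He relative to Hml are lower in avl-RNAi than in control discs at 92 h and at 116 h.

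The genes whose levels followed the plasmatocyte markers most closely were taken from 658 genes whose group means spanned at least 1 log2 unit, by Pearson's r over the 15 arrays with the mean of the 7 centred markers. They were Hexo2 (r = 0.928), Prip (0.905), Karl (0.891), lectin-24Db (0.887), srp (0.871), Glt (0.838), NimB4 (0.723) and shep (0.685). The arrays share their groups and the array that stood apart, and the genes were chosen for following the markers over these arrays, so their values are a description and no separate evidence. Srp, the GATA factor gene of blood cells and fat body, had levels of 5.54, 5.38 and 5.06 in avl-RNAi at 168 h, against 3.75, 3.98 and 5.13 at 116 h, a difference of 1.04. In the same comparison the difference was 1.54 for Glt, the gene of the matrix glycoprotein glutactin, 0.84 for Karl, a lipocalin gene, and 1.02 for Prip, an aquaporin gene. It was 0.76 for Hexo2, 0.29 for shep and -0.14 for NimB4. Without avl-RNAi replicate 3 of 116 h it was 1.47 for srp, 1.90 for Glt, 1.17 for Karl, 1.5 for Prip and 1.39 for Hexo2, and NimB4 turned to 0.31.

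Genes that act with these markers were read from 6 lists of their pathways. Of all genes 31.7% were called in avl-RNAi at 116 h against control, 12.6% higher and 19.1% lower, and 27.0% in avl-RNAi at 168 h against 116 h, 15.5% higher and 11.5% lower, the shares beside which the counts of each list stand. Among 18 measured Nimrod, scavenger and complement-like receptors and opsonins, 6 rose and 1 fell in avl-RNAi at 116 h against control, with a median difference of 0.042 beside -0.017 over all genes. The 7 called of 18 are a share not far from that of all genes. NimB3, a gene of the Nimrod cluster, was higher by 1.39, pes, a CD36-like receptor gene, by 0.60, and Tep3, a gene of a complement-like protein, by 0.48, while emp, also of the CD36 family, fell by 0.32 (limma, adjusted p = 0.00647, 0.000205, 0.00102 and 0.00242). At 92 h none of the 18 was called. In avl-RNAi at 168 h against 116 h, 2 rose and 4 fell.

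Of 11 transcription factors of blood cells, 0 rose and 4 fell at 116 h (median -0.12). Of all genes 31.7% were called in either direction, 12.6% higher and 19.1% lower. Kn, the gene of the factor Collier, fell by 2.66 ± 0.14 (limma, adjusted p = 8.86e-09). Its levels were 4.67, 5.12 and 4.86 in avl-RNAi at 116 h, against 7.41, 7.58 and 7.64 in control. It is also a patterning gene of the wing disc itself, so its level cannot be assigned to haemocytes. The zinc finger gene klu fell by 0.95 (adjusted p = 1.17e-05), peb by 0.92 (adjusted p = 0.000336) and Bgb, a partner of Lozenge, by 0.38 (adjusted p = 8.94e-06).

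Lamellocytes are flat haemocytes that appear after wasp attack or in blood tumours. Of their 6 markers 2 rose at 116 h and 0 fell, beside 12.6% of all genes higher and 19.1% lower (31.7% in either direction). Cher, the filamin gene, was higher by 1.12 ± 0.066 (limma, adjusted p = 2.79e-08) and atilla by 0.87 ± 0.095 (adjusted p = 9.5e-06). The lamellocyte integrin genes were not called: ItgaPS4 differed by -0.16 and Itgbn by 0.076. In control discs of 92 h cher and atilla had means of 10.65 and 7.41, so levels far above the array medians were not particular to the knockdown. PPO3, the lamellocyte prophenoloxidase gene, was named after its values were seen. It was called in neither comparison of genotypes, and rose with age by 0.40 in avl-RNAi and by 0.50 in control discs at 116 h against 92 h (adjusted p = 0.00188 and 0.000499).

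Of 12 measured melanization and clotting genes 5 rose and 3 fell in avl-RNAi at 116 h, beside 31.7% of all genes called. Tg, the transglutaminase gene of the clot, had levels of 6.91, 6.45 and 6.56 in avl-RNAi at 116 h, against 4.93, 4.64 and 4.67 in control (difference 1.89 ± 0.13, limma, adjusted p = 1.49e-07). The serine protease gene psh was higher by 1.46 (adjusted p = 5.02e-08) and the serpin gene nec by 1.58 (adjusted p = 4.27e-06). Spn27A, whose serpin restrains melanization, fell by 0.44 (adjusted p = 0.000106). At 168 h against 116 h in avl-RNAi discs 3 of the 12 rose and 4 fell, beside 27.0% of all genes.

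Of 12 measured genes for signals that act on haemocytes and their receptors, 8 rose and 3 fell at 116 h (median 0.40), beside 12.6% of all genes higher and 19.1% lower. The ligand genes upd2 and upd1 of the JAK/STAT pathway were higher by 3.25 and 3.43 (limma, adjusted p = 1.18e-10 and 1.26e-10), and Pvf1, a ligand gene of the PDGF/VEGF-like receptor, by 2.47 (adjusted p = 1.25e-09). The upd2 levels were 7.78, 7.74 and 8.03 in avl-RNAi at 116 h, against 4.63, 4.59 and 4.59 in control. Wgn, a TNF receptor gene, fell by 0.84 (adjusted p = 1.14e-07). The list showed no call at 92 h, and in avl-RNAi at 168 h against 116 h upd2, Pvf1 and upd1 fell by 1.59, 1.0 and 0.88 (adjusted p = 2.34e-07, 1.53e-05 and 7.82e-05).

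Of 11 genes for matrix proteins that haemocytes and fat body make, 6 rose and 2 fell at 116 h (median 0.56), beside 12.6% of all genes higher and 19.1% lower. Genes of other tissues also moved: 5 of 6 muscle genes rose (median 1.04), 3 of 4 tracheal genes rose and 1 fell (median 0.68), and fat body genes had a median of 0.84 with 0 risen and 1 fallen of 5. Their part in the levels of the matrix genes was not tested. Tig, the tiggrin gene, was higher by 3.47 ± 0.27, Ndg, the nidogen gene, by 1.25, trol, the perlecan gene, by 0.91 and SPARC by 0.88 (limma, adjusted p = 3.23e-07, 1.13e-05, 5.95e-08 and 7.79e-06). Replicate 3 of avl-RNAi at 116 h did not stand apart in Tig, with 9.76, 9.19 and 9.60, against 6.44, 6.06 and 5.63 in control. It was the highest of its group in the collagen IV genes vkg (9.48, 9.89 and 10.25, against 9.42, 9.25 and 9.08 in control) and Col4a1 (9.50, 9.94 and 10.22, against 9.55, 9.30 and 9.14 in control), which were named after their values were seen. Without it vkg remained called (0.43, limma, adjusted p = 0.0241) and Col4a1 did not (0.39, adjusted p = 0.0727, against 0.56 and 0.016 with all arrays).

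Without that array, the counts risen and fallen at 116 h were 5 and 2 of the 18 receptors and opsonins, 0 and 4 of the 11 transcription factors, 2 and 1 of the 6 lamellocyte markers, 5 and 3 of the 12 melanization genes, 7 and 2 of the 12 signal genes and 5 and 1 of the 11 matrix genes, beside 29.8% of all genes called. Of the 24 genes named from the 6 lists 22 were called at 116 h. Each of the 22 kept its call and its direction in all 23 other settings, without replicate 3 among them. The 24 were named for the smallest adjusted p of their list in this same comparison. These counts are thus a description and no separate evidence.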

How the data were processed

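Total RNA of wing discs was measured on 15 Affymetrix 1-colour arrays. The authors deposited log2 values for 18952 probe sets, normalized between arrays (every array had a mean of 6.01); the log base was read from the values, and the background correction and normalization are not given in the sources used here. Partek and limma are named, with no role, per the submitters' processing notes. Arrays carry no read depth, and precision is set by having 3 of them in each group. Probe sets with 1 gene symbol (13647) were kept, those with several (402) or none (4903) were left out, and a gene was represented by its brightest probe set, which gave 11982 genes.

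A linear model with the 5 groups of the labels as its terms was fitted to every gene by limma 3.58.1 (lmFit, eBayes; R 4.3.3). Adjusted p-values are Benjamini-Hochberg over all genes of each of 7 comparisons, and a gene was called, or rose or fell, under 0.05. Comparisons that use the same group share its arrays. The design was tested on simulated data. Differences within an array were tested by exact permutation over arrays.

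Named were all members, up to 4 genes with the smallest adjusted p at 116 h of each pathway list, and the 8 genes most like the plasmatocyte mean, none of them known by a CG or CR number alone. The members and lists were chosen with earlier results of these data known, and of the lists Tep1, Tep2, Mcr, PGRP-LC, MP1, upd3, hop, N and Ser were not analysed here. Gene roles are background knowledge, and gene neighbours come from RefSeq. As alternatives, the fit was run on just the compared groups' arrays, with replicates blocked by number, after quantile normalization, without the lowest 25% of genes, on averaged probe sets, with a trended and robust prior, without 2 control arrays apart in gut transcripts, with the fat body mean as a covariate, and without each array in turn. Same-numbered arrays were treated as unpaired: of 30 correlations between the deviations of same-numbered arrays 9 exceeded 0.1, with a range of -0.41 to 0.5. Between avl-RNAi and control at 92 h they were 0.5, -0.02 and 0.38 for replicates 1, 2 and 3, so some structure by replicate number may be shared there.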

Additional observations from a re-analysis of the deposited data

How the results depend on the processing

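Fitted on the arrays of the compared groups alone, 0 markers in place of 1 were called between avl-RNAi and control at 116 h (24.3% of all genes), and 7 in place of 3 between avl-RNAi of 168 h and control of 116 h (24.9% of all genes). The count at 116 h was also 0 without the 2 control arrays apart in gut transcripts and 0 with the fat body mean as a covariate. With the replicate block the counts were 0 and 1 for avl-RNAi against control at 92 h and 116 h, 0 for the interaction, 1 and 0 for 116 h against 92 h in control and in avl-RNAi discs, 4 for avl-RNAi at 168 h against 116 h and 3 against control, as without it. Leaving out each array in turn gave 0 calls at 92 h, 0 to 3 at 116 h, 0 to 2 for the interaction, 0 to 3 and 0 to 1 for 116 h against 92 h in avl-RNAi and in control discs, 4 to 6 for avl-RNAi at 168 h against 116 h, and 2 to 5 against control. He in avl-RNAi at 116 h against 92 h ranged from -0.87 to 0.71, the lowest without avl-RNAi 116 h replicate 3 and against 0.083 with all arrays. PPO1, PPO2, eater and NimC1 kept their calls for avl-RNAi at 168 h against 116 h in all 8 other settings and without any of the 15 arrays. Leaving out the lowest 25% of genes removed lz, which has no value there. The cause of these dependences was not tested. With 3 arrays a group, a miss does not show that levels were equal.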

Other observations

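Genes whose levels followed the mean of PPO1 and PPO2 were looked for after the values had been seen, by the same measure of likeness over the 15 arrays. The 8 closest were fd96Cb (r = 0.906), vkg (0.898), btd (0.891), Col4a1 (0.883), disco (0.875), disco-r (0.868), Nplp2 (0.862) and l(2)efl (0.853). The transcription factor genes among them, fd96Cb, btd, disco and disco-r, are known from ventral and leg tissue or the head rather than from haemocytes, while vkg and Col4a1 encode collagen IV, which haemocytes and fat body make.

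Disco-r had levels of 7.33, 7.03 and 6.92 in avl-RNAi discs of 168 h, against 7.58, 7.67 and 8.52 at 116 h, so that the array high in haemocyte genes was also high here. Disco had 6.49, 6.17 and 6.07 in avl-RNAi discs of 168 h, against 6.94, 7.14 and 7.74 at 116 h. Nplp2, a neuropeptide-like precursor gene, had a mean of 5.71 in avl-RNAi discs of 168 h, against 10.23 at 116 h. Since the genes were chosen for following PPO1 and PPO2, their lower levels at 168 h are no separate evidence, and whether the piece of tissue dissected differed between these arrays was not tested.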
